A study of Mus musculus with 6 samples.

Results

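The proteasome genes described here are the protein-coding genes of the 3′ UTR count table whose symbols join Psm to a letter from a to g and a number, without the interferon-inducible Psmb8, Psmb9 and Psmb10. There were 47 such genes of 21820 protein-coding genes in the table, with 258 annotated transcripts. Of the 47, 46 had at least 1 count and 45 passed the filter on low counts and were tested. The pattern also caught Psmc3ip, a recombination factor, and Psme2b, a near-identical copy of Psme2, which are kept in all counts and listed apart from the subunits. Each gene stands for its transcript with the highest mean normalized count over the 6 libraries. Values per library are listed as replicates 1, 2 and 3, control first.

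Bone marrow-derived macrophages (BMDMs) of C57BL/6J mice 6 to 8 weeks old, differentiated for 10 days with medium of L929 cells and treated with 100 ng/ml LPS for 4 hours, were sequenced from the 3′ ends of their RNA. The 3 control libraries came from hnRNPD fl/fl cells, which carry loxP sites around exons 3 and 4 of the gene for AUF1 and no Cre, and the 3 M-Δx3,4 libraries from LysMCre+ hnRNPD fl/fl cells, in which Cre is driven by a promoter active across the myeloid lineage. All 6 cultures had LPS, so resting levels were not measured, and nothing in the labels says whether the libraries of a group came from separate mice, so every p-value measures the spread between these libraries, which may be technical. AUF1 (hnRNPD) binds AU-rich elements in 3′ UTRs and is known for its effects on the decay and translation of such mRNAs.

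The proteasome degrades proteins tagged with ubiquitin. Its core particle is a barrel of outer alpha rings, which form the gate, and inner beta rings, which hold the proteolytic sites, and it is capped by a regulatory particle whose ATPases unfold substrates while its other subunits bind ubiquitin and remove it. In macrophages interferon can exchange the catalytic beta subunits for inducible forms, and the PA28 activator is best known for its part in making peptides for antigen presentation.

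No proteasome gene passed the test between the genotypes. With calls made where the unadjusted p fell under 0.05, edgeR's quasi-likelihood test called none of the 45, against 4.05% of the 10110 protein-coding genes tested. DESeq2's Wald test (3.05% of all protein-coding genes) and limma-voom (3.31%) also called 0 of 45, and with a minimum log2 fold change of 1 edgeR called 0 of 45 and 3.07% of all. The smallest p among them was that of Psmg2, and it was 0.984 after Benjamini-Hochberg adjustment over all transcripts (edgeR). The estimates were higher in M-Δx3,4 BMDMs for 22 genes and lower for 23. Their median log2 fold change was -0.014, beside -0.010 for all protein-coding genes tested. It ran from -1.44 for Psmc3ip, a gene with at most 6 counts in a library, to 0.95 for Psmd12, a lid subunit.

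How small a change these libraries could show differed by gene. For 18 of the 45 genes the 95% interval of the fold change lay inside 2-fold in either direction, against 18.1% of all protein-coding genes tested. Proteasome genes were counted deeply: 34 of the 45 had a mean above 50 normalized counts, and among these the share inside 2-fold was 50%, against 40.1% of the 4172 protein-coding genes at that level. The median standard error was 0.36 on the log2 scale for the 45 genes and 0.48 for all protein-coding genes. For the other 27 the interval still held a 2-fold difference in at least 1 direction.

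**Figure D1:**
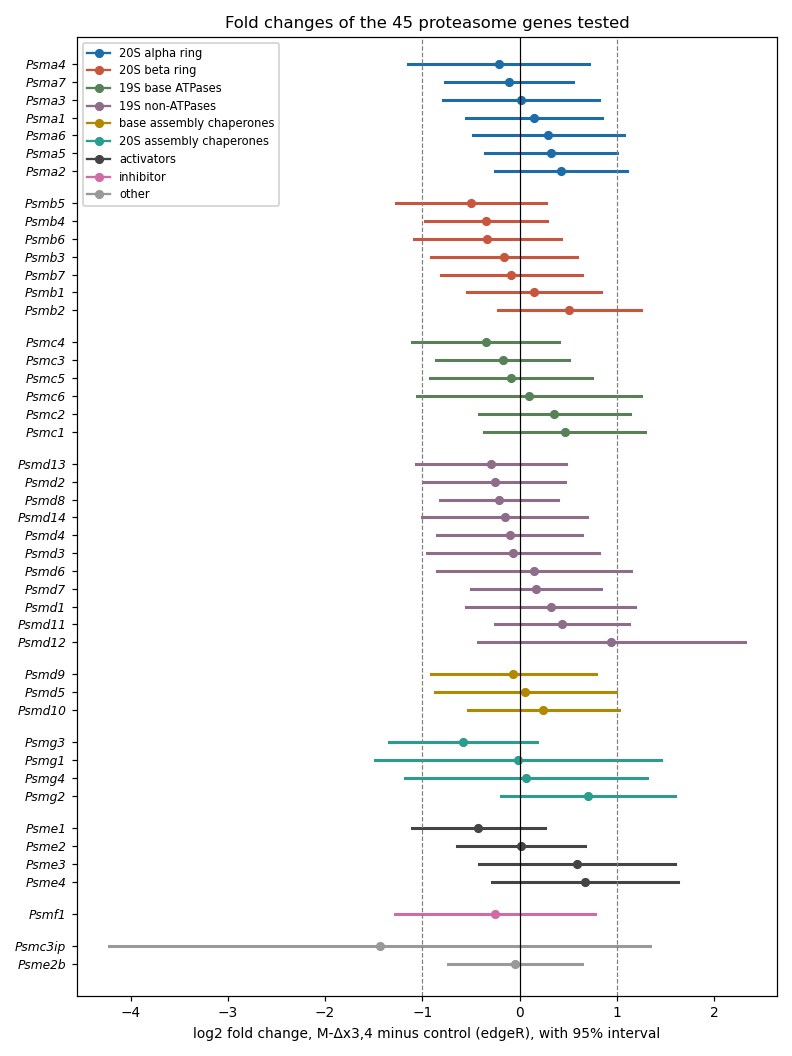
The plot gives the log2 fold change (x axis, M-Δx3,4 minus control) of each of the 45 proteasome genes tested (y axis, grouped by role) with its 95% interval from the edgeR fit. The dashed lines mark 2-fold. Every interval crosses 0, and the widest belongs to Psmc3ip.

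Libraries that stood apart touch these values. Summed over all transcripts, the counts ran from 5852374 to 9008878 per library, and the control libraries varied more than the M-Δx3,4 libraries in 66.3% of the protein-coding genes tested. Without control replicate 1, 16.9% of 9740 protein-coding genes passed the threshold on the unadjusted p, while 1 of 45 proteasome genes did (Psmg3, lower). Leaving out control replicate 2 or 3 gave 3.35% and 2.51% of all genes, leaving out M-Δx3,4 replicate 1, 2 or 3 gave 2.86%, 2.51% and 2.29%, and no proteasome gene was called in these fits. As a check of the labels, the Hnrnpd transcript with the highest mean (ENSMUST00000172361) had 335.9, 185.9 and 104.4 normalized counts against 137.9, 124.3 and 160.5, with overlapping groups and a log2 fold change of -0.57 that did not pass the test. A 3′ region shared by ENSMUST00000019128, ENSMUST00000072750 and ENSMUST00000112939, whose counts are identical and so belong to no single AUF1 isoform, had 177.8, 104.2 and 69.6 against 52.8, 12.6 and 16, without overlap. Its log2 fold change of -2.11 passed the unadjusted threshold (edgeR adjusted p = 0.984). The positions of these regions against the deleted exons are not given here, so neither region is taken as a test of the deletion itself. All 8 macrophage markers were detected, and 1 of them, Lyz2, was lower in M-Δx3,4 BMDMs (log2 fold change -0.91, past the unadjusted threshold, edgeR adjusted p = 0.984). Lyz2 is the lysozyme M gene after which the LysMCre line is named, so it is no independent marker of macrophage content here. Any part of the Cre line in its level was not tested. The summed B-cell markers were 299.8 to 358.6 in control and 141.8 to 164.3 in M-Δx3,4 libraries, mostly from Igkc, which passed the unadjusted threshold (log2 fold change -1.56). The other summed lists overlapped between the groups: neutrophil 230.8 to 599.8 and 384.4 to 535, T-cell 5.8 to 37.2 and 10.8 to 24.3, fibroblast 1.2 to 33.7 and 1.9 to 21.5, red-cell 0 to 32.6 and 1.0 to 13.7, and dividing-cell 22.0 to 39.5 and 16.5 to 25.4, with Elane, Cd3e and Cd3g at 0 in every library. Within the fibroblast list Col3a1 also passed the unadjusted threshold (edgeR adjusted p = 0.984). It had 13.9, 6.1 and 0 normalized counts in control and 0 in every M-Δx3,4 library, so the groups overlap at 0. Only control libraries exceeded the filter on low counts (4.89). Col3a1 thus entered the test through the group where it was high, and its call is no support for a difference. The part of these markers in the values below was not tested, and in bulk RNA fewer cells of a type and less RNA per cell cannot be told apart.

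With 1 transcript per gene, the proteasome genes together held 0.584% ± 0.0349 (SD, n = 3) of the counts of control BMDMs and 0.561% ± 0.0597 of those of M-Δx3,4 BMDMs (two-sided exact permutation p = 0.4, where 3 libraries against 3 can give no p under 0.1). Their summed normalized counts were 16620.4, 18257 and 16235.8 against 15565.7, 18450.5 and 14818.8. The ranges of the groups overlap, with M-Δx3,4 replicate 2 the highest and M-Δx3,4 replicate 3 the lowest.

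The alpha ring genes encode the outer rings through which substrates enter. Of the 8, 7 were tested, with 5 estimates higher and 2 lower in M-Δx3,4 BMDMs and a median log2 fold change of 0.15. Psma2 had the highest, with 367.3, 304.5 and 234.4 normalized counts against 468.5, 344.7 and 408.1 (log2 fold change 0.43, 95% interval -0.25 to 1.11). Control replicate 1 lay above M-Δx3,4 replicate 2, so the groups overlap. The lowest estimate was that of Psma4 (-0.21), and its control libraries alone ran from 145.0 to 526.5. Psma8, the form of the alpha ring made in testis, had no count in any library. With 3 counts as the floor, an expected count of up to 3 per library is not excluded by this.

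Among the beta ring genes, 2 of 7 estimates were higher and 5 lower, with a median of -0.16. Psmb5, Psmb6 and Psmb7 encode the subunits with the chymotrypsin-like, caspase-like and trypsin-like sites. Psmb5 (counted at chr14:54613870-54614191, minus strand, mm10) had 87.2, 121.6 and 146.2 normalized counts against 72.4, 80.6 and 97.8, a log2 fold change of -0.50 (standard error 0.36, 95% interval -1.27 to 0.27). Control replicate 1 lay between the M-Δx3,4 libraries, and the other control libraries lay above all of them. Psmb6 had 190.6, 385.2 and 431.6 against 289.5, 282.6 and 229.3 (log2 fold change -0.33), with control replicate 1 below every M-Δx3,4 library and the other controls above. Psmb7 had 280.1, 214.6 and 163.6 against 221.1, 236.9 and 163.5 (log2 fold change -0.08), so its lowest libraries in the groups were level. The region counted for Psmb7 lies wholly opposite the 3′ end of Nek6 on the other strand, whose region had 169 counts in all against 1276 for Psmb7. Parts of the regions of Psmc5, Psmc3ip, Psmd8 and Psme1 also lie opposite other genes, and their counts are uncertain to that degree. The opposite region had more counts for Psmc5 (Smarcd2, 1401 against 769) and Psmc3ip (Mlx, 179 against 16). It had fewer for Psmd8 (Ggn, 2 against 12334) and Psme1 (Emc9, 88 against 1640).

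Psmb2 and Psmb4 are beta subunits without a proteolytic site. Psmb2 had 70.9, 80.7 and 85.9 normalized counts against 108.6, 124.3 and 106.2 (log2 fold change 0.51, 95% interval -0.22 to 1.25). The M-Δx3,4 libraries were all above the controls (two-sided exact permutation p = 0.1). Psmb4 had 1220.4, 1517.2 and 1599.9 against 1040.8, 1331.3 and 1038.6, with overlapping groups and a log2 fold change of -0.35. Psmb11, the thymus-specific catalytic form, had 1 count in control replicate 1 and none elsewhere.

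The regulatory particle had 17 genes, all of them tested. For the 6 ATPases of its base, 3 estimates were higher and 3 lower, between -0.35 for Psmc4 and 0.47 for Psmc1. Psmc1 had 54.6, 70.5 and 74.3 normalized counts against 81.2, 130.1 and 65.0, and only M-Δx3,4 replicate 3 fell into the control range. Psmc2 was at 91.8, 111.4 and 83.5 against 166.3, 102 and 100.1 (log2 fold change 0.36), where the difference of the means came from M-Δx3,4 replicate 1. Psmc4 was at 83.7, 124.6 and 120.7 against 79.2, 96.1 and 83.3, with control replicate 1 among the M-Δx3,4 libraries.

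Of the 11 subunits of the regulatory particle that are not ATPases, 5 estimates were higher and 6 lower. Psmd1 and Psmd2 form the scaffold that docks ubiquitin receptors, Psmd4 is a ubiquitin receptor, and Psmd14 is the deubiquitinase that cleaves ubiquitin chains from substrates. Their log2 fold changes were 0.32, -0.26, -0.10 and -0.15. Psmd4 had 970.5, 1707.3 and 1019.8 normalized counts against 1022.2, 1619.7 and 810.8, and replicate 2 was the highest in each group. Psmd14 had 577.7, 253.4 and 321.4 against 435.3, 186.4 and 413.4, with a range of more than 2-fold inside each group. For Psmd2 the values were 416.1, 551.7 and 705.4 against 307.1, 548.6 and 545.6. Psmd1 was narrow in the control libraries, at 48.8, 49.0 and 55.7, and wide in the M-Δx3,4 libraries, at 37.2, 66.0 and 87.9. That transcript is annotated as a target of nonsense-mediated decay, and the protein-coding transcript of the gene (ENSMUST00000027432) had the opposite spread, with 45.3, 22.5 and 15.1 against 51.8, 45.6 and 39 (log2 fold change 0.72). Psmd11, a lid subunit, had the highest estimate among those of these 11 with a mean of at least 50 normalized counts, at 636.9, 724.4 and 834.2 against 675.9, 1299.2 and 1001.9 (log2 fold change 0.44, 95% interval -0.25 to 1.13).

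Proteasomes are built with the help of dedicated chaperones. Psmg3, one of the chaperones of the core particle, had 113.9, 161.4 and 178.7 normalized counts against 110.5, 117.5 and 76.4. It had the lowest log2 fold change among members with a mean of at least 50 normalized counts (-0.58, standard error 0.36, 95% interval -1.34 to 0.18), and control replicate 1 lay just below the highest M-Δx3,4 library. Without that library the log2 fold change was -0.75 and the gene passed the unadjusted threshold, in the fit where 16.9% of all genes did. Psmg2, which pairs with Psmg1, had 23.2, 20.4 and 19.7 against 35.2, 41.8 and 26.7 (log2 fold change 0.70, 95% interval -0.19 to 1.60), and its groups did not overlap. Psmg1 and Psmg4 were near the filter, with control means of 7.8 and 14.1 normalized counts and M-Δx3,4 means of 7.8 and 14.8. Their intervals reached beyond 2-fold in both directions. The chaperones of the base, Psmd5, Psmd9 and Psmd10, had estimates of 0.06, -0.06 and 0.24 (log2 fold change), and for each of the 3 the control libraries spanned all M-Δx3,4 values. Psmd10, also known as gankyrin, had 263.8, 209.4 and 110.2 against 261.2, 204.9 and 224.7.

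Activators open the gate of the core particle without ubiquitin. Psme1 (PA28 alpha) had 276.6, 269.7 and 397.9 normalized counts against 238.7, 208.8 and 256.8, a log2 fold change of -0.42 (95% interval -1.11 to 0.26) with no overlap between the groups. Psme2, which encodes PA28 beta and joins PA28 alpha in 1 ring, had 706.7, 718.3 and 469.9 against 696.5, 644.8 and 571.6, a log2 fold change of 0.013 (95% interval -0.64 to 0.67). The intervals of these partners overlap, and the difference between them was not tested. Psme4 (PA200) had 25.6, 22.5 and 11.6 against 35.2, 27.2 and 32.9, also without overlap (log2 fold change 0.67, 95% interval -0.28 to 1.63). Psme3 (PA28 gamma), the nuclear activator, had 13.9, 23.5 and 13.9 against 35.2, 18.4 and 24.5 (log2 fold change 0.59), with overlapping groups. Psmf1 (PI31), named as an inhibitor, had 39.5, 23.5 and 67.3 against 28.4, 56.3 and 24.5, and its control libraries spanned the M-Δx3,4 libraries.

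The groups did not overlap for 4 of the 45 genes, Psmb2, Psme1, Psme4 and Psmg2, against 8.57% of all protein-coding genes tested. The share of the proteasome genes was close to that background. None of the 4 had an interval that left out 0.

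**Figure D2:**
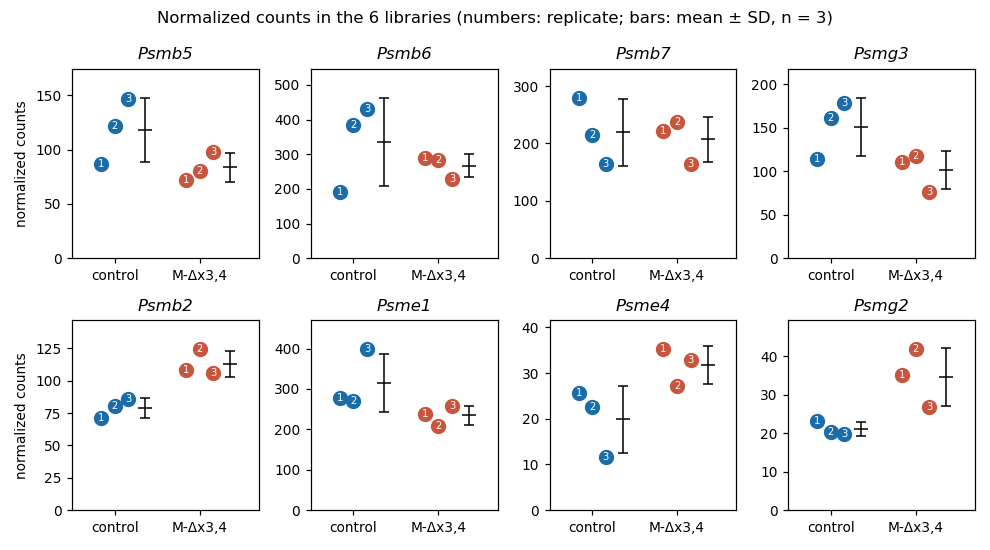
Each panel plots the normalized counts (y axis, from 0) of 1 gene in the control and M-Δx3,4 libraries (x axis), as points numbered by replicate, with the mean ± SD (n = 3). In the upper row, Psmb5, Psmb6 and Psmg3 have control replicate 1 apart from the other control libraries and level with or below M-Δx3,4 libraries, and in the lower row the groups do not overlap.

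The spread inside the control group was larger than the differences between the genotypes for many of these genes. The control libraries had the larger coefficient of variation for 29 of the 45 genes, near the 66.3% of all protein-coding genes. For 15 of the 45 genes the control libraries spanned every M-Δx3,4 value. The share over all protein-coding genes was not taken, so this count is not shown to be particular to the proteasome genes. Control replicate 3 was the lowest library for 16 genes and the highest for 14, so it did not deviate in 1 direction. Control replicate 1 was above control replicate 3 for 7 of 7 alpha ring genes (median log2 difference 0.87) and below it for 5 of 7 beta ring genes (median -0.39). It was also below for 8 of the 11 non-ATPase subunits of the regulatory particle (median -0.07) and above for 4 of the 6 ATPases (median 0.14). Among all protein-coding genes tested control replicate 1 was the higher for 54.3%, with a median log2 difference of 0.10. This grouping was looked at after the values were seen and has no test. Summed over the alpha ring, the normalized counts were 5426.7, 4016.4 and 3336.7 against 4684.4, 4749.3 and 3982.3. Over the beta ring they were 2221.2, 2855.7 and 3001.5 against 2288, 2538.3 and 2055.7, so the order of the control libraries was the reverse of that in the alpha ring.

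**Figure D3:**
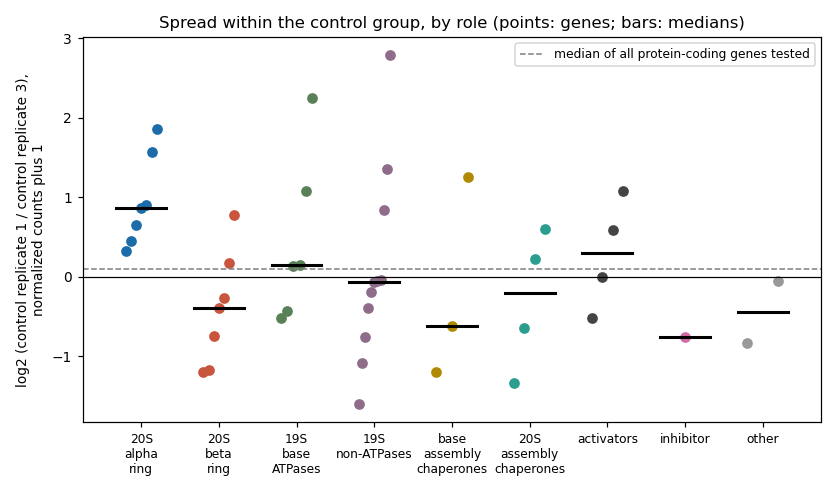
Points give, for each gene tested, the log2 ratio of normalized counts plus 1 between control replicate 1 and control replicate 3 (y axis) by role (x axis), with black bars at the medians. The dashed line is the median of all protein-coding genes tested (0.10). The alpha ring lies wholly above 0 and most of the beta ring below it.

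Counts belong to transcripts whose 3′ regions overlap, and some estimates moved with the choice of transcript. The log2 fold change of Psmf1 was -0.26 with its representative and -0.94 with ENSMUST00000109869. That of Psmc1 was 0.47 with its representative and 0.76 with ENSMUST00000021595. Overlap of the groups moved too, in both directions. Psma2 overlapped with its representative, but ENSMUST00000170836 did not, at 309.2, 277.9 and 215.8 normalized counts against 425.5, 312.7 and 370.6. Psme1 did not overlap with its representative, but ENSMUST00000174259 did, at 90.7, 111.4 and 153.1 against 94.9, 83.5 and 86.4. Of the members' transcripts, 149 were tested, with 127 different sets of counts. Only 1 passed the unadjusted threshold, against 4.13% of the 32475 transcripts tested. It was a minor transcript of Psma4 (ENSMUST00000172407) with control counts of 3.3 ± 3.0 and M-Δx3,4 counts of 14.1 ± 9.7 (normalized, SD, n = 3) and overlapping groups. Transcripts with an estimate on the other side of 0 than their gene's representative numbered 12. The representative was annotated as a protein-coding transcript for 33 of the 45 genes, as a target of nonsense-mediated decay for 9, as a retained intron for 2 and as a processed transcript for 1, and a shared 3′ end does not show which of them the reads came from. Psme2b was counted over 45 bases, and its transcript is 99.3% identical to that of Psme2 over 716 aligned positions, so reads of the 2 cannot be told apart with certainty. Its control mean was 250.2 ± 52.4 normalized counts and its M-Δx3,4 mean 242.2 ± 30.8.

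The interferon-inducible catalytic subunits, which replace Psmb5, Psmb6 and Psmb7, were compared with their counterparts as a ratio per library. Psmb8 had a log2 fold change of 0.08, Psmb9 of -0.11 and Psmb10 of -0.04. The log2 ratio of Psmb8 to Psmb5 was 1.47, 1.55 and 0.33 against 2.22, 1.72 and 1.19, higher by 0.59 in M-Δx3,4 BMDMs. Control replicate 3 was the lowest and M-Δx3,4 replicate 1 the highest, and the other libraries overlapped. For Psmb9 to Psmb6 the difference was 0.14, and for Psmb10 to Psmb7 it was 0.05. The exact permutation p-values (two-sided) were 0.4, 0.7 and 1, and each was 1 after Benjamini-Hochberg adjustment over the 3 pairs.

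**Figure D4:**
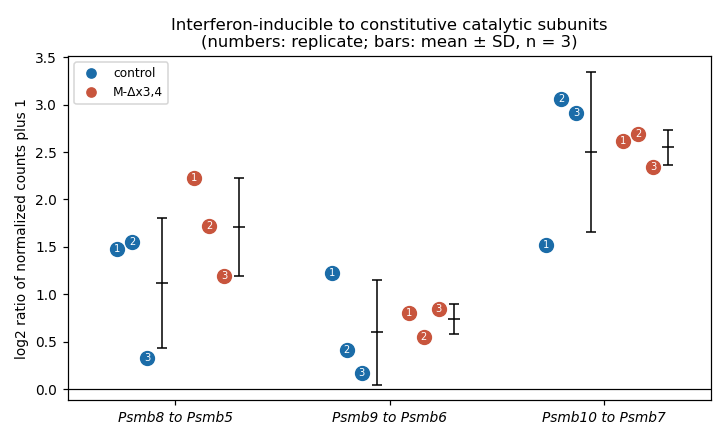
The log2 ratio of normalized counts plus 1 (y axis) is plotted for the 3 pairs of an interferon-inducible and a constitutive catalytic subunit (x axis) in each library, with the mean ± SD (n = 3). The groups overlap in all 3 pairs, and the control libraries are the more spread.

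Of a list of 35 further genes of the ubiquitin-proteasome pathway found in the table, all 35 were tested and 2 passed the unadjusted threshold with a higher level in M-Δx3,4 BMDMs, against 1.37% of protein-coding genes in that direction. None was lower, against 2.67%. Npepps, a cytosolic aminopeptidase that trims peptides, had 134.8, 155.3 and 94.0 normalized counts against 226, 294.2 and 203.3, or 0.91 higher on the log2 scale (standard error 0.34, edgeR adjusted p = 0.984). Its groups did not overlap, and without M-Δx3,4 replicate 2 the log2 fold change was 0.74 and the gene was no longer called. Ngly1, the deglycosylase that processes the transcription factor Nfe2l1, had 1 count in the 3 control libraries together and 18 in the M-Δx3,4 libraries, a ratio of 14.5 after normalization (95% exact binomial counting interval 2.28 to 603). Its M-Δx3,4 libraries had 10.8, 2.9 and 3.1 normalized counts, so replicate 1 held most of them. Only that library exceeded the filter on low counts (4.89). Ngly1 thus entered the test through the group where it was high, and its call is no support for a difference. Without control replicate 1, without control replicate 3 or with the replicate number as a block it was not called either (edgeR adjusted p = 0.984 with all libraries). Without M-Δx3,4 replicate 1, and under both stricter filters on low counts, it was left out of the fit. Nfe2l1 itself, which induces proteasome genes when the proteasome is inhibited, was at 190.6, 190 and 142.7 against 138.9, 189.4 and 146.7 (log2 fold change -0.14). Pomp, the maturation factor of the core particle, and Adrm1, a ubiquitin receptor, had log2 fold changes of 0.0036 and 0.013. Pomp ran from 2091.8 to 5847.4 in control and from 2779 to 6029.1 in M-Δx3,4 libraries.

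AUF1 binds AU-rich elements, so the 3′ UTRs of the members were searched for the pentamer ATTTA on the sense strand, in GENCODE vM21 and with 1 protein-coding transcript per gene. The members had short 3′ UTRs, with a median of 241 bases against 1080 for all protein-coding genes tested. ATTTA was found in 15 of the 45 (33.3%), against 67.8% of 10017 genes, and its density was 1.17 against 1.79 per kb. The nonamer TTATTTATT, which holds the pentamer, was in none of the 45 and in 7.5% of all genes. The median log2 fold change was 0.013 for the 15 members with the pentamer and -0.04 for the 30 without, against 0.06 and -0.14 in all genes. A match is a run of letters and says nothing of binding. To show the letters around the pentamer, both sites of the beta subunit gene Psmb4, the first of Psmd14, the deubiquitinase, and the last of the 4 sites of Psmc6, an ATPase, are given with the pentamer in capitals (GRCm38, sense strand).
Psmb4, chr3:94884278-94884302, minus strand: ttgaaacaggATTTAtgtagcccag
Psmb4, chr3:94884102-94884126, minus strand: ggagagaaccATTTAagtcttaatg
Psmd14, chr2:61800290-61800314, plus strand: ttaagatcccATTTActatttgaaa
Psmc6, chr14:45349630-45349654, plus strand: aattgagattATTTAtagttaattc

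Nfe2l1 acts through antioxidant response elements, so the promoter windows (250 bases before to 50 after the start, RefSeq, GRCm38.p6) were searched for the core TGACNNNGC on both strands. Of the 47 genes, 39 matched a promoter. The core was in 6 of them (15.4%), against 15% of 16802 protein-coding genes, and CCAAT was in 14 (35.9%), against 42.3%. No member's window held both motifs. The windows of the catalytic subunits that held the core are shown, with the core in capitals because their genes encode proteolytic subunits.
Psmb5, chr14:54618026-54618050, minus strand: tgaagttgTGACGTCGCggcgttgc
Psmb6, chr11:70525340-70525364, plus strand: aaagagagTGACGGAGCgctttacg
These cores begin 47 and 9 bases before the start, while the 6 cores ranged from 7 (Psme4) to 247 (Psmd12) bases before it. Their genes had the log2 fold changes of -0.50 and -0.33 given above, and neither passed the test.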

How the data were processed

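The authors made QuantSeq 3′ mRNA libraries, sequenced them on an Ion Proton, aligned the reads to mm10 with TopHat2 (2.1.1) and Bowtie2 (2.3.2 per the labels) and deposited raw counts of reads on annotated 3′ UTR regions. Their table of fold changes and combined p-values was not used. Here the counts of the regions of a transcript were summed (142567 transcripts, 52013 with a count). Counts were normalized by median of ratios, and the 32475 transcripts exceeding the median normalized count (4.89) in some library were fitted. The genotypes were compared in edgeR (4.0.16, R 4.3.3) by the quasi-likelihood test, adjusted by Benjamini-Hochberg over all transcripts. DESeq2 (1.42.0) and limma-voom (limma 3.58.1) were alternatives. Scripts were tested on simulated counts. Overlapping regions hold the same reads, so transcripts of 1 gene are not independent. The total with 1 transcript per gene was 2503213 to 3846120 counts per library, and intervals on counts cover counting error only. Genes named were the 5 highest and 5 lowest fold changes among members with a mean of at least 50 normalized counts, any member called, and fixed lists of subunits, regulators, chaperones and pathway genes. The members and lists were chosen with earlier results of these data known. No genome sequence was used, so 3′ UTRs were read from annotated transcripts in place of the counted regions.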

Additional observations from a re-analysis of the deposited data

How the results depend on the processing

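The number of proteasome genes with an unadjusted p under 0.05 was 0 in each direction under every alternative tried with all libraries (TMM or library totals, DESeq2, limma-voom, 3 other filters, 1 transcript per gene, identical transcripts once, the second different transcript, without Psmc3ip and Psme2b, a p under 0.01 and a minimum log2 fold change of 1). Leaving out 1 library in turn gave 0 higher and 0 to 1 lower, a median log2 fold change of -0.034 to 0.11 and 6 to 17 genes without overlap, the highest of each without control replicate 1, where 33.7% of all protein-coding genes did not overlap (15.4% to 16.9% without another library). A second different transcript was tested for 34 genes, and 2 of these did not overlap. The share over all protein-coding genes was not taken for this choice, so the count has no background beside it.

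Several estimates near 0 changed sign, and none of them had passed the threshold. With library totals alone Psmg1 was at 0.019. With limma-voom Psmd9 was at 0.014 and Adrm1 at -0.14. Over the fits that left out 1 library the log2 fold changes ran from -0.24 to 0.13 for Psmb7, -0.43 to 0.21 for Psmd4, -0.38 to 0.27 for Psmd14, -0.15 to 0.12 for Psme2, -0.71 to 0.22 for Psmf1, -0.56 to 0.32 for Psmg1, -0.29 to 0.54 for Psmg4, -0.22 to 0.46 for Psmd5, -0.36 to 0.13 for Psmd9, -0.028 to 0.52 for Psmd10, -0.11 to 0.37 for Psmb8, -0.29 to 0.28 for Psmb10, -0.37 to 0.34 for Adrm1 and -0.32 to 0.25 for Pomp. Other estimates kept their sign but moved by over 1.5 times, among them 0.011 to 0.59 for Psmd1, -0.43 to -0.028 for Psmd2, -0.61 to -0.099 for Psmb6, 0.13 to 0.67 for Psmc1, 0.077 to 0.49 for Psmc2 and 0.20 to 0.65 for Psmd11. The ratio differences ran from 0.20 to 0.85 for Psmb8 to Psmb5, from -0.079 to 0.45 for Psmb9 to Psmb6 and from -0.44 to 0.33 for Psmb10 to Psmb7. The cause of these changes was not tested.

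Replicate numbers did not pair the libraries as a set. Correlations of the deviations of same-numbered libraries were -0.17, 0.52 and -0.32, so only the libraries numbered 2 varied together. Control 1 with M-Δx3,4 3 had 0.53, and control 3 with M-Δx3,4 1 had 0.25. The main test took no pairing into account. The replicate block followed the replicate numbers, so it could not adjust for a batch shared by libraries of different numbers. With it, 0 proteasome genes and 287 of 10110 protein-coding genes (2.84%) were called. Psmd9 was at 0.012 and Adrm1 at -0.089, and Ngly1 (3.42) was no longer called. With 3 libraries a group, the 95% interval held a 2-fold difference for 27 of the 45 genes. Psmg1 had no value under edgeR's own filter or with at least 10 counts in every library, and Psmg4 none under the latter.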
